A study of Mus musculus with 12 samples.

Results

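The genes described here encode the CD8 coreceptor (*Cd8a*, *Cd8b1*), the 4 signalling chains of the T cell receptor complex (*Cd3d*, *Cd3e*, *Cd3g*, *Cd247*), the proximal kinases *Lck* and *Zap70*, the adaptor *Lat* and the inhibitory receptor *Cd5*. They were chosen by name, by a rule that uses no measured value, although earlier results of these data were known, and are 10 of the 18992 gene identifiers in the expression tables. All 10 were listed in each library and all 10 passed the minimum level used for comparisons.

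Single-cell RNA sequencing was performed on CD8+ T cells sorted as PD-1+CD44+ from NZB/W F1 mice, the hybrid of the NZB and NZW strains, in which a lupus-like nephritis appears as the mice age. Cells came from the spleen at 12 weeks (12W spleen), the spleen at 28 weeks (28W spleen) and the kidney at 28 weeks (28W kidney), and no treatment or introduced allele is named for any of these groups. Of the 12 samples, 4 belonged to each group, but each group's table pools its samples, so each group was 1 library with no replicate and no difference below was tested. The sample titles differ only by L001 to L004, and whether these are separate samples or sequencing lanes of 1 library is not stated. Groups followed the sample titles, although the age given for 28W spleen in another field is 12 weeks. The number of mice is not stated. Collagenase digestion is described for kidney and not for spleen, so organ and preparation cannot be told apart. The sort used CD8 protein, so the presence of CD8 transcripts in these cells is given by the design.

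CD8 is displayed mainly as a heterodimer of the alpha and beta chains, or as a homodimer of the alpha chain, and brings the kinase LCK to the antigen receptor. The CD3 chains carry the receptor's signalling motifs, which LCK phosphorylates. ZAP70 then docks on these motifs and phosphorylates LAT, on which downstream enzymes assemble, while CD5 dampens the signal.

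*Cd3g* and *Cd3d* lie head to head on mouse chromosome 9 (GRCm38), on opposite strands with 1354 bases between them, and *Cd3e* lies 11400 bases beyond *Cd3d*. *Cd3g* spans chr9:44969572-44980431, *Cd3d* spans chr9:44981786-44987339 and *Cd3e* spans chr9:44998740-45009627. *Cd247*, which encodes the zeta chain, lies on another chromosome at chr1:165788681-165877277. *Cd8a* (chr6:71373427-71379173) and *Cd8b1* (chr6:71322788-71337494) lie on the same strand of chromosome 6, 35932 bases apart. *Lck* spans chr4:129548344-129573641, *Zap70* chr1:36761798-36782818, *Lat* chr7:126363824-126369570 and *Cd5* chr19:10717116-10739002.

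The 250 bases before the RefSeq start of the 4 CD3 chain genes are shown because their levels followed each other most closely across all clusters. This did not hold for every pair without the clusters marked by genes of other cell types, defined below. The same stretch of *Cd8a* is shown because its ratio to *Cd8b1* differed between libraries. The sequences are those of RefSeq on GRCm38.p6, in the direction of each gene, and belong to the C57BL/6J reference and not to NZB/W F1 mice. The gene spans above are from GENCODE, whose *Cd3e* start lies a little upstream of that of RefSeq, so the *Cd3e* window overlaps the span. Capitals mark GGAAGT, a core motif of ETS factors, or TGTGGT, a core motif of RUNX factors, on either strand. The windows are chr9:44981536-44981785 (plus strand) for *Cd3d*, chr9:44980432-44980681 (minus) for *Cd3g*, chr9:45009612-45009861 (minus) for *Cd3e*, chr1:165788431-165788680 (plus) for *Cd247* and chr6:71373177-71373426 (plus) for *Cd8a*.
Cd3d: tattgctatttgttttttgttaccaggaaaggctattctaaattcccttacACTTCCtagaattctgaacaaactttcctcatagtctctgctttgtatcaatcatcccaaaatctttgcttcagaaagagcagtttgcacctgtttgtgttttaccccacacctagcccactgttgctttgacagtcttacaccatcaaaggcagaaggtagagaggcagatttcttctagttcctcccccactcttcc
Cd3g: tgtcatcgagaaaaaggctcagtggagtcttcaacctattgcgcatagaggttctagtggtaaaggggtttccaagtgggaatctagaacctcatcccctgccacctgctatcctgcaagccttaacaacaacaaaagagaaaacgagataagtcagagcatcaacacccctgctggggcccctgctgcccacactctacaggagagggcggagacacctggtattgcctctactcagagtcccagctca
Cd3e: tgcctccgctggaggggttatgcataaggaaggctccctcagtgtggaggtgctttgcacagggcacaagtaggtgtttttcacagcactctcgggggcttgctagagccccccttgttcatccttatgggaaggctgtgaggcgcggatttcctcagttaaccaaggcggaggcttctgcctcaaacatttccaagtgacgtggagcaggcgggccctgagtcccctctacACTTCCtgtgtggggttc
Cd247: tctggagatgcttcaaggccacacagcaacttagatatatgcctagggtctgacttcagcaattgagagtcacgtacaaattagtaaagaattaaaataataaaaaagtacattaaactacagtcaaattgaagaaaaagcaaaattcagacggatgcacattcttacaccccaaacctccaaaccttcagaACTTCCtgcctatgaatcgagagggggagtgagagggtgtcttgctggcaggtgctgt
Cd8a: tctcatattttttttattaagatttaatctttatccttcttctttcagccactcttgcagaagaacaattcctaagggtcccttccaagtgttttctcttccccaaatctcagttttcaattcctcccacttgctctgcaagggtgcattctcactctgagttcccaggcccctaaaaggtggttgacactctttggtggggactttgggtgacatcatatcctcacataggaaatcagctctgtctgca
The *Cd3d*, *Cd3e* and *Cd247* windows each held 1 GGAAGT, and the *Cd3g* and *Cd8a* windows held neither motif. The promoter table had 12 windows for 9 of the 10 genes and no entry for *Cd8b1*. GGAAGT was present in 7 of the 12 windows, against 19.7% of 32851 mouse promoter windows of the same length, and TGTGGT in 2 of 12, against 14.0%. Both strands were searched, and no stretch of letters can match both motifs. A match is a description of letters, and binding was not measured.

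The libraries held 6894, 6481 and 7135 cells in 10, 11 and 12 clusters for the 12W spleen, the 28W spleen and the kidney, with 5039, 4941 and 4196 unique molecular identifiers (UMIs, 1 per captured transcript molecule) per cell on average and 29937384 to 34742303 UMIs in all. Between 52 and 66 cell barcodes were shared by any pair of libraries, at most 1.02% of the smaller library. The alpha beta T cell markers *Trac*, *Trbc1* and *Trbc2* summed to between 762 and 932 UMIs per 1000000 UMIs of the library (CPM), against 3.19 to 10.7 CPM for *Cd4* and *Cd40lg*. The 3 listed gamma delta markers summed to 12.8 to 26.2 CPM. Genes of other cell types marked 8 of the 33 clusters, by a summed marker list at least 10 times the median cluster of the library and at least 50 CPM. These were cluster 3 of 12W spleen (erythroid), clusters 8 (erythroid) and 10 (B cell and myeloid) of 28W spleen, and clusters 2 and 7 (kidney tubule and erythroid), 8 (B cell), 11 (erythroid) and 12 (myeloid) of 28W kidney. The 6 tubule markers were all at 0 in both spleen libraries and all above 0 in kidney, where their summed level ranged from 2.93 to 3827 CPM over clusters. Intervals of levels, shares and UMI ratios below are exact 95% intervals that cover counting error only. Those of log2 ratios set the lower 95% limit of 1 library against the upper limit of the other. They also cover counting error only, and are wider than 95% intervals.

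*Cd8a*, the alpha chain of the coreceptor, stood at 738 CPM (728 to 748) in 28W kidney, 591 CPM (583 to 599) in 12W spleen and 488 CPM (481 to 496) in 28W spleen. *Cd8b1*, the beta chain, stood at 1119 CPM (1107 to 1131), 873 CPM (863 to 883) and 1015 CPM (1004 to 1026) in the same order. The lowest library thus differed between the chains, being 28W spleen for *Cd8a* and 12W spleen for *Cd8b1*. Per cell, the 12W spleen held 2.98 *Cd8a* and 4.40 *Cd8b1* UMIs, 28W spleen 2.41 and 5.02, and 28W kidney 3.10 and 4.69. On the per-cell scale *Cd8b1* was therefore lower in kidney than in 28W spleen, the reverse of its order in CPM.

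Among the CD3 chains, *Cd3d* (CD3 delta) was at 1072 CPM in the 12W spleen, at 975 CPM in the 28W spleen and at 1155 CPM in kidney. *Cd3e* (CD3 epsilon) was at 1107, 1047 and 1306 CPM in these libraries. *Cd3g* (CD3 gamma) was at 1025, 908 and 1397 CPM, the widest range of the 4 chains. *Cd247* (zeta) was at 282, 285 and 309 CPM, and its intervals in the spleen libraries overlapped (277 to 288 and 279 to 291 CPM). The 3 genes of the chromosome 9 cluster were lowest in 28W spleen and highest in 28W kidney in CPM. Per cell, 28W spleen was again lowest, but 12W spleen was highest for *Cd3d* (5.40 UMIs, against 4.85 in kidney) and *Cd3e* (5.58, against 5.48).

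*Lck*, the kinase carried by CD8, was at 824 and 751 CPM in the spleen at 12 and 28 weeks and at 771 CPM in kidney. *Zap70*, the kinase that docks on phosphorylated CD3 chains, was at 195, 156 and 159 CPM in this order, and its intervals at 28 weeks overlapped between spleen and kidney. *Lat*, the adaptor phosphorylated by ZAP70, was at 745, 796 and 828 CPM. *Cd5*, the inhibitory receptor, was at 201 CPM (196 to 206), 144 CPM (140 to 149) and 124 CPM (120 to 128). Both kinases and *Cd5* were highest in 12W spleen, and *Lat* was highest in kidney in CPM but lowest there per cell, at 3.47 UMIs against 3.76 in 12W spleen and 3.93 in 28W spleen. Apart from *Cd247* between the spleens and *Zap70* between the 28W organs, neighbours in the order of the 3 libraries had intervals that lay apart. These intervals cover counting error and not variation between mice. The share of all genes with library intervals apart was not computed, so this separation has no background beside it.

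**Figure D1:**
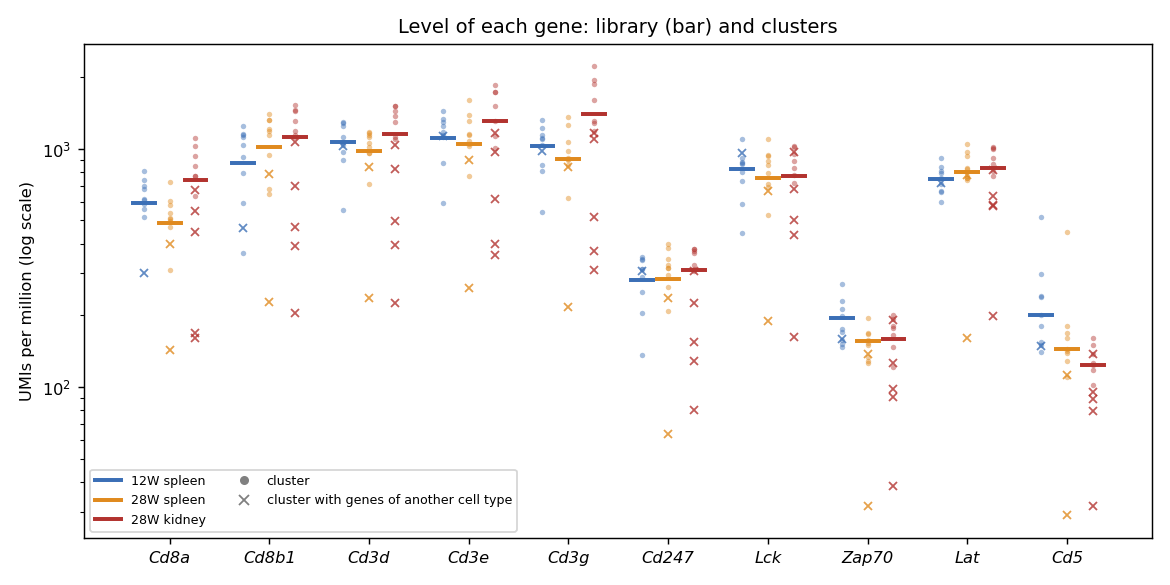
UMIs per 1000000 (CPM, log scale) of the 10 genes in the 3 libraries. Bars are the library values, points are clusters, and crosses are clusters marked by genes of another cell type, which hold the lowest values of every gene in 28W spleen and 28W kidney. Cd3g stands at 1397 CPM in kidney against 908 in 28W spleen.

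With age, 28W spleen was compared with 12W spleen by the log2 ratio of CPM after adding 1 CPM. The ratio was -0.27 for *Cd8a* and 0.22 for *Cd8b1*, so the coreceptor chains lay on opposite sides of 0. *Cd5* had the lowest ratio at -0.47 (-0.55 to -0.40), followed by *Zap70* at -0.32 (-0.40 to -0.25). The other 6 genes lay between -0.18 (*Cd3g*) and 0.10 (*Lat*). None of the 10 genes was past a log2 ratio of 0.5 in either direction, against 4.6% of the 7434 genes compared that were higher by that much and 4.49% that were lower. The median over the 10 genes was -0.14, beside -0.10 over all genes compared. *Cd5* was lower past this fold without the deepest cluster of each library (-0.50) and with cluster levels averaged by cell number (-0.51). *Cd3e* turned positive with scaling by the median gene ratio, and *Cd247* negative with cluster levels averaged by cell number.

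Between organs at 28 weeks, *Cd3g* and *Cd8a* were higher in kidney than in spleen by more than 0.5 on the log2 scale. The ratio was 0.62 (0.59 to 0.65) for *Cd3g* and 0.59 (0.55 to 0.64) for *Cd8a*. With cluster levels averaged by cell number, *Cd3g* was at 0.499, just short of the fold, and *Cd8a* at 0.56. These 2 of 10 genes compare with 13% of 7686 genes that were higher past the fold and 5.19% that were lower, and no gene of the 10 was lower past it. *Cd3e* followed at 0.32 and *Cd3d* at 0.24. *Cd8b1* (0.14), *Cd247* (0.12), *Lat* (0.06), *Lck* (0.04) and *Zap70* (0.03) were near 0, and all of these 5 turned negative when the total left out mitochondrial, ribosomal protein and T cell receptor genes. *Lck*, *Zap70* and *Lat* also turned negative with scaling by the median gene ratio, and *Lck* without the deepest cluster of each library. Without the 7 clusters of these libraries marked by other cell types they were instead at 0.38 (*Cd8b1*), 0.31 (*Cd247*), 0.20 (*Lck*), 0.20 (*Lat*) and 0.14 (*Zap70*). *Cd5* alone was lower in kidney, at -0.22 (-0.31 to -0.13).

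With that reduced total the median of all genes moved from 0.07 to -0.08, and *Cd3g* and *Cd8a* were at 0.46 and 0.44, below the fold. Relative to the median of all genes they were 0.55 and 0.52 higher in kidney, the same as with the full total. A change of total moves all genes nearly alike, so this sameness follows from the arithmetic. *Lck*, *Zap70* and *Lat* lay below the median of all genes by 0.02 to 0.04 with the full total, and above it by 0.15, 0.09 and 0.14 without the marked clusters. Leaving out the marked clusters raised the ratio to 0.88 for *Cd3g*, 0.84 for *Cd8a* and 0.55 for *Cd3e*. In kidney, 5 of 12 clusters were so marked, against 2 of 11 in 28W spleen. In counts summed over cells, fewer cells of a type and less RNA per cell cannot be told apart. The 28W spleen library served in both comparisons, so their values are not independent.

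**Figure D2:**
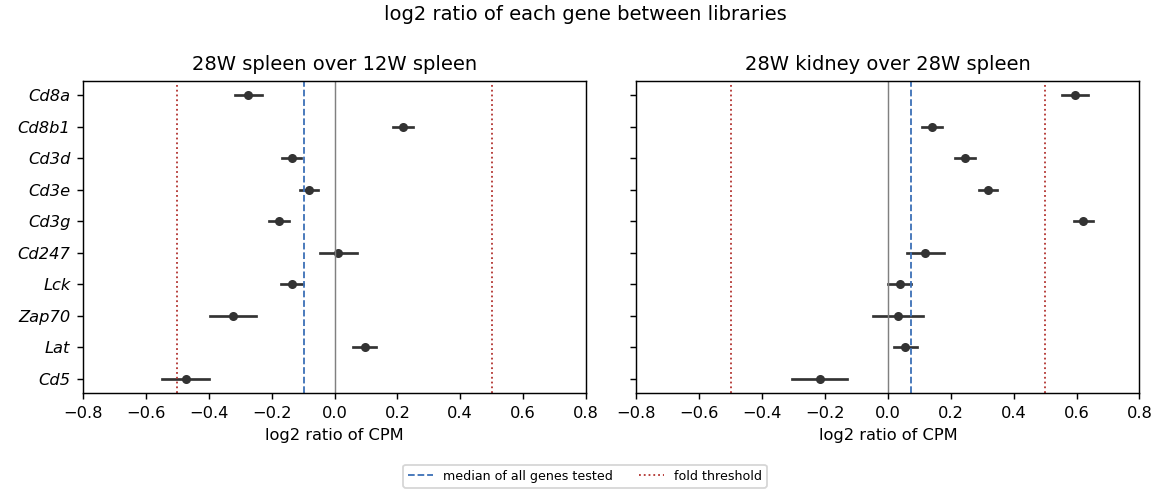
log2 ratio of CPM of each gene for 28W spleen over 12W spleen (left) and 28W kidney over 28W spleen (right). Points are ratios with limits that combine the 95% counting limits of both libraries. The dashed line is the median of all genes compared and the dotted lines are the fold of 0.5 in each direction. Only Cd8a (0.59) and Cd3g (0.62) lie beyond a dotted line, both in the right panel.

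The cluster levels of all 10 genes overlapped between libraries in both comparisons. Over all genes compared, every cluster of 28W spleen lay above every cluster of 12W spleen for 0.0269%, and below for 0%. The corresponding shares for kidney against 28W spleen were 0.0911% above and 0.026% below.

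The ratio of *Cd8a* to *Cd8b1* UMIs, which needs no library total, was 0.677 (0.665 to 0.689) in the 12W spleen and 0.481 (0.472 to 0.490) in the 28W spleen, with 0.660 (0.648 to 0.671) in kidney. *Cd8b1* UMIs thus outnumbered *Cd8a* UMIs in each library, most in 28W spleen. All 10 clusters of 12W spleen and 11 of 12 clusters of 28W kidney had a ratio above the 28W spleen value. Only 1 of 11 clusters of 28W spleen exceeded the 12W spleen value. Clusters were made by the authors from the same cells and are not replicates, and their numbers are not matched between libraries.

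Within 12W spleen the ratio ran from 0.532 (0.506 to 0.560) in cluster 2 to 1.60 (1.51 to 1.69) in cluster 7. Cluster 7, led by *Xcl1*, *Ccl4* and *Tnfrsf9*, which T cells make on activation, and cluster 9 (1.15, 1.06 to 1.24), led by *Eno3* and *Hivep3*, were the only clusters of any library with more *Cd8a* than *Cd8b1* UMIs. In CPM, cluster 7 had the lowest *Cd8b1* of 12W spleen (366 CPM) with *Cd8a* at 584 CPM, near the library value. Per cell, it held 4.90 *Cd8b1* UMIs, against 4.40 in the library, and 7.83 *Cd8a* UMIs, against 2.98. Cells of cluster 7 averaged 13406 UMIs, against 5039 in the library, so the lower *Cd8b1* level in CPM went with a larger total and not with fewer *Cd8b1* UMIs per cell. Without cluster 7 the ratio of 12W spleen was 0.618, which still exceeded that of 28W spleen.

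Within 28W spleen the ratio ran from 0.417 (0.396 to 0.439) in cluster 5 to 0.725 (0.691 to 0.759) in cluster 6, which was led by genes of proliferating cells such as *Pclaf* and *Birc5*. In cluster 6, *Cd8a* was at 468 CPM and *Cd8b1* at 646 CPM, the latter against 1015 CPM in the library. Without cluster 6 the ratio of 28W spleen was 0.445. A cluster led by proliferation genes did not have the highest ratio in 12W spleen, where cluster 10 stood at 0.610, nor in kidney, where cluster 11 stood at 0.630.

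Within 28W kidney the ratio was lowest in the B cell marked cluster 8, at 0.428 (0.384 to 0.477). It was highest at 0.945 (0.827 to 1.08) in cluster 2, marked by erythroid and tubule genes. Without the 5 clusters marked by other cell types, it ran from 0.566 in cluster 5 to 0.732 in cluster 6, led by interferon-stimulated genes. Summed B cell markers reached 2072 CPM in cluster 8, and their part in its ratio was not tested. Along the order of ratios, intervals of neighbouring clusters were apart for 1 of 11 pairs in kidney, 2 of 9 in the 12W spleen and 0 of 10 in the 28W spleen. In 28W spleen the interval of cluster 6 nevertheless overlapped only that of its neighbour, the marked cluster 10 (0.485 to 0.816).

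**Figure D3:**
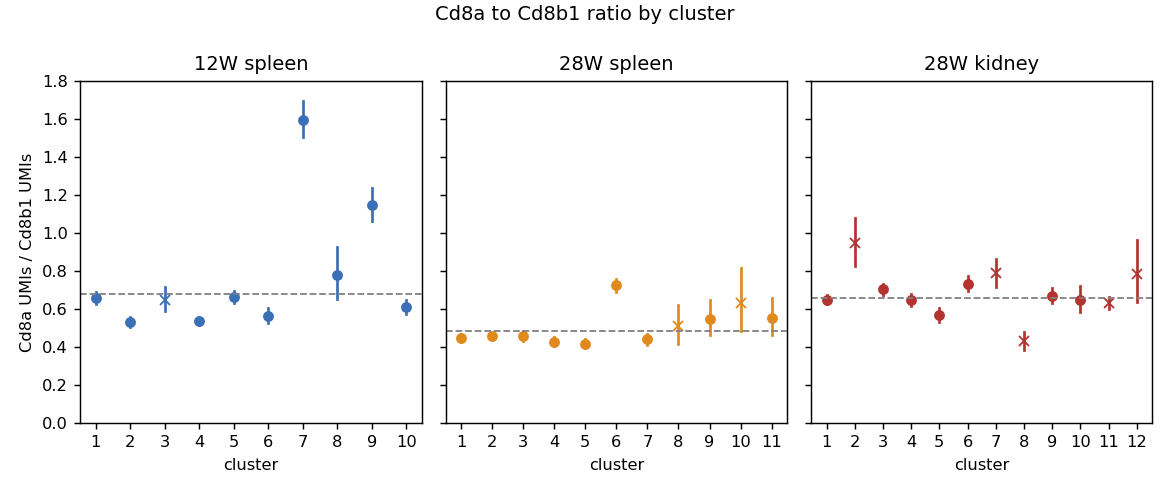
Ratio of Cd8a to Cd8b1 UMIs in each cluster of the 3 libraries, with 95% counting intervals. Crosses are clusters marked by genes of another cell type and dashed lines are the library ratios of 0.677, 0.481 and 0.660. Clusters 7 (1.60) and 9 (1.15) of 12W spleen are the only ones above 1.

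*Cd3g* took a larger share of the CD3 chain UMIs in kidney than in either spleen. Of the UMIs of the 4 chains it made up 33.5% (33.3 to 33.8) in kidney, against 29.4% in 12W spleen and 28.2% in 28W spleen. In the order 12W spleen, 28W spleen, kidney, the share of *Cd3d* was 30.7%, 30.3% and 27.7%, that of *Cd3e* 31.8%, 32.6% and 31.3%, and that of *Cd247* 8.10%, 8.86% and 7.42%. *Cd3g* was therefore the most counted chain in kidney and *Cd3e* in both spleens.

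By cluster, the *Cd3g* share was above the highest 28W spleen cluster (31.4%) in 9 of 12 kidney clusters. It was highest in cluster 6 of kidney at 37.2% (36.3 to 38.1). The kidney exceptions were cluster 2 at 25.1% and cluster 8 at 29.0%, both marked by other cell types, and cluster 9 at 30.8%, which was not. Against 12W spleen the overlap was wider. Its cluster 2 was at 32.1% (31.3 to 32.8), also above kidney clusters 5 and 11, both at 31.7%. The *Cd247* share was below the lowest 28W spleen cluster (7.88%) in 7 of 12 kidney clusters. No 28W spleen cluster had a *Cd3g* share above or below all clusters of 12W spleen. In 12W spleen, cluster 8 had the highest *Cd3e* share at 40.5% and the lowest *Cd3g* share at 22.6%. That cluster averaged 928 UMIs per cell, with 8.98% of UMIs mitochondrial against 1.18% in the library, and the part of this in its shares was not tested.

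**Figure D4:**
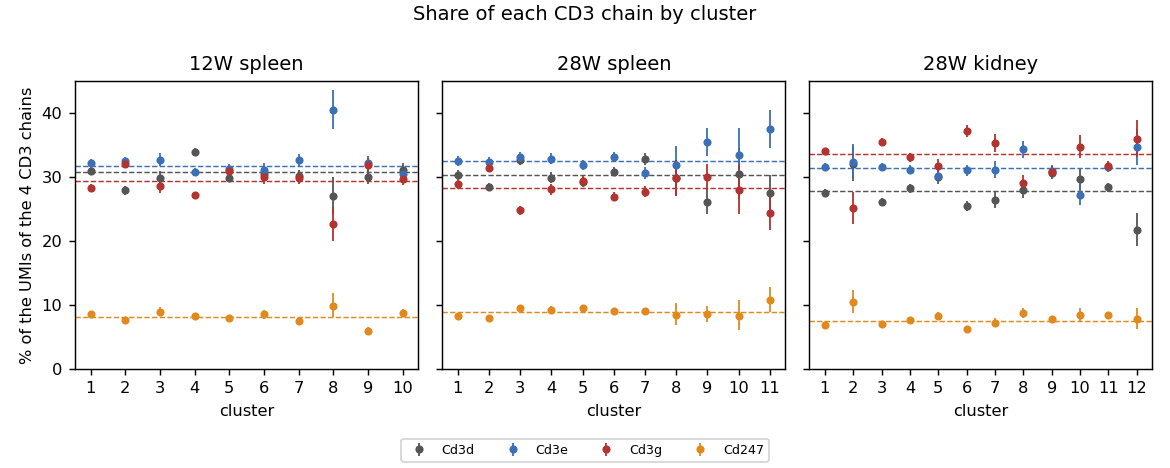
Percent of the summed UMIs of Cd3d, Cd3e, Cd3g and Cd247 taken by each chain in each cluster, with 95% counting intervals. Dashed lines are library shares. Cd3g lies above the other chains at 33.5% in kidney, against 29.4% and 28.2% in the spleens.

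Summed over the 10 genes, clusters ranged from 1830 to 10846 CPM in kidney, from 4449 to 8262 CPM at 12 weeks in spleen and from 1558 to 8456 CPM at 28 weeks. The low ends at 28 weeks belonged to clusters marked by other cell types. Cluster 10 of 28W spleen was lowest for 10 of 10 genes, with *Cd3e* at 260 CPM and *Lck* at 189 CPM. Its alpha beta T cell markers summed to 184 CPM, against 563 to 946 CPM in the other clusters of that library, and its myeloid and B cell lists reached 7306 and 2781 CPM. Cluster 12 of kidney was lowest for 9 of 10 genes, with *Cd8b1* at 204 CPM, alpha beta markers at 141 CPM and myeloid markers at 22872 CPM. *Cd3g* alone was lower in cluster 2 of kidney (310 CPM), marked by erythroid and tubule genes, than in cluster 12 (372 CPM). In that cluster 2, the library's shallowest at 1200 UMIs per cell, *Lck* was at 968 CPM, above its library value of 771 CPM. Per cell, *Lck* was at 1.16 UMIs there, against 3.23 in the library. Each of the other genes was below its library value in CPM in that cluster. The part of the other cell types' genes in these levels was not tested.

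In 12W spleen the lowest cluster carried no such markers. Cluster 7 was lowest for *Cd8b1*, *Cd3d*, *Cd3e*, *Cd3g*, *Cd247* and *Lck* and highest for *Zap70* (271 CPM). *Lck* stood at 442 CPM there, against 824 CPM in the library. The ratio of *Lck* to *Zap70* UMIs was 1.64 (1.53 to 1.75) in that cluster, against 4.23 in the library and up to 6.03 elsewhere. *Lck* per cell was 5.93 UMIs, against 4.15 in the library, and *Zap70* per cell 3.63 UMIs, against 0.983. Both kinases thus had more UMIs per cell in cluster 7, and *Zap70* by the larger factor. *Lat* per cell was 10.8 UMIs there, against 3.76 in the library. In CPM *Lat* was at 807, against 745 in the library, and ranked 3 among the clusters. Cells of cluster 7 also held more UMIs in all, as given above, so per-cell values there are raised by the larger total.

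A low *Lck* to *Zap70* ratio recurred in clusters led by proliferation genes at 28 weeks, at 2.72 (2.55 to 2.90) in cluster 6 of 28W spleen and 3.56 (3.29 to 3.86) in cluster 11 of kidney. The other clusters ranged from 4.83 to 7.40 in 28W spleen and from 4.23 to 7.68 in kidney. Kidney cluster 11 was also marked by erythroid genes, and its interval overlapped that of kidney cluster 12 (2.98 to 6.12). Without marked clusters, the lowest kidney ratio was 4.35, in cluster 4. *Zap70* was highest of 28W spleen in cluster 6, at 195 CPM. Cluster 6 of 28W spleen and cluster 11 of kidney were the deepest of their libraries, at 12209 and 11404 UMIs per cell. The proliferating cluster 10 of 12W spleen, also the deepest there, had a ratio of 3.86. Low ratios were not confined to such clusters. Cluster 9 of 12W spleen, led by *Eno3* and *Hivep3* and not by proliferation genes, stood at 3.47 (3.13 to 3.85).

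In kidney, cluster 6, led by the interferon-stimulated genes *Ifit3*, *Isg15* and *Rsad2*, was highest for both coreceptor chains and 3 CD3 chains. *Cd8a* reached 1114 CPM, *Cd8b1* 1523 CPM, *Cd3d* 1518 CPM, *Cd3e* 1848 CPM and *Cd3g* 2215 CPM. The *Cd3d* interval overlapped that of cluster 1 (1509 CPM), and the *Cd8b1* interval that of cluster 3 (1459 CPM). Per cell, cluster 11 and not cluster 6 held the most UMIs of each of these genes, with 13.3 against 7.09 for *Cd3g*. *Zap70*, *Lat* and *Cd5* were highest in kidney cluster 1, led by *Gzmb* and *S100a4*, at 200 CPM, 1018 CPM and 160 CPM. Their intervals there overlapped those of cluster 3. Cluster 4 of 28W spleen, also led by interferon-stimulated genes, was highest for none of the 10 genes.

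*Cd5* was far above its library value in 1 cluster of each spleen library. It reached 516 CPM in cluster 8 of 12W spleen, where the other clusters ranged up to 299 CPM, and 448 CPM in cluster 11 of 28W spleen, where the others ranged up to 181 CPM. These clusters averaged 928 and 1288 UMIs per cell and 8.98% and 6.64% mitochondrial UMIs. Per cell, *Cd5* was at 0.479 and 0.577 UMIs there, below the library values of 1.01 and 0.713. The high *Cd5* level in CPM therefore did not hold per cell. The highest kidney cluster was at 160 CPM. The mitochondrial share of the erythroid and tubule marked cluster 2 of kidney was 10.8%, and *Cd5* there was at 95.1 CPM.

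**Figure D5:**
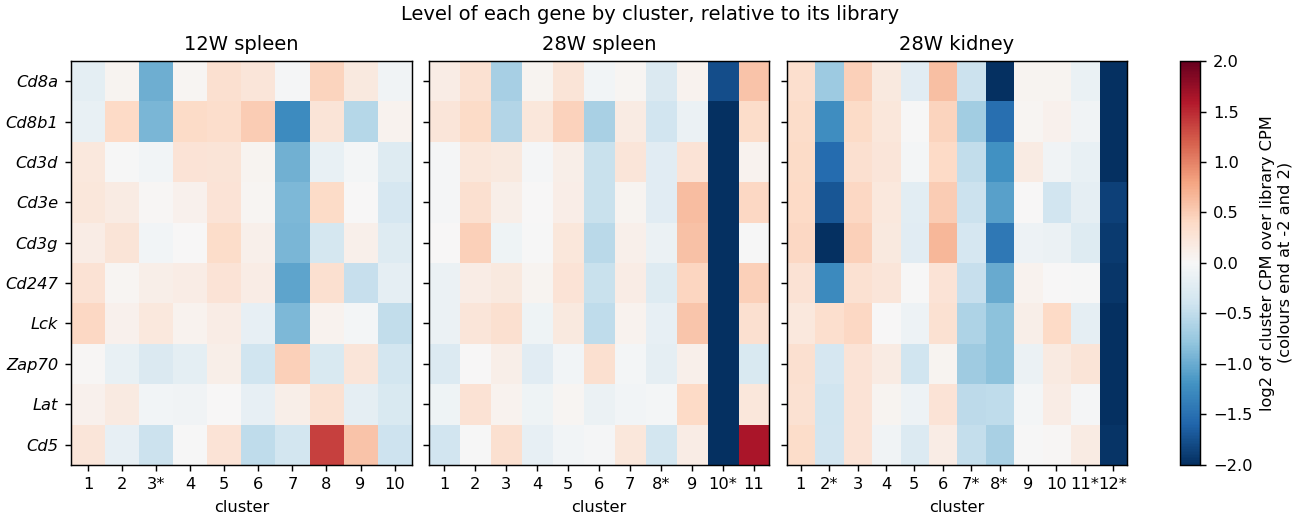
log2 of the CPM of each gene in a cluster over its CPM in the library, for all 33 clusters. Red is above and blue below the library value, and asterisks mark clusters with genes of another cell type. The 10 genes are low together in cluster 10 of 28W spleen and cluster 12 of 28W kidney, and Zap70 and, by less, Lat are above their library values in cluster 7 of 12W spleen where 6 others are lowest.

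Without clusters marked by other cell types, all 10 genes in 12W spleen and kidney, and 9 of 10 in 28W spleen, varied less between clusters than the median gene, the exception being *Cd5*. The highest cluster exceeded the lowest by a median factor of 2.43 over the 10 genes at 12 weeks in spleen, 2.09 at 28 weeks in spleen and 1.50 in kidney. Over all genes with at least 10 CPM in the library and above 0 in each cluster kept, the median factors were 4.38, 3.16 and 1.93. These genes were not matched in level to the 10 genes, of which the lowest library value was 124 CPM. Counting error widens the factor more at low levels, and its part in the difference was not tested. With all clusters kept, the order was reversed at 28 weeks, with 6.16 against 3.68 in 28W spleen and 5.75 against 3.52 in kidney. *Lat* had the narrowest range of the 10 genes in 12W spleen, a factor of 1.53. *Cd5* had the widest in both spleens, at 3.67 and, without marked clusters, 4.06.

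Across all 33 clusters, with those marked by other cell types kept, the 10 genes followed each other in level. Similar genes were sought with all of these clusters only. For each gene the most similar genes were sought by Pearson's r of log2 CPM, centred on the library, among 2964 genes. *Cd3e* was most like *Cd247* (r = 0.97) and *Cd3d* (0.96), and *Cd3g* most like *Cd3e* (0.96). *Cd8b1* was most like *Thy1*, a T cell surface marker (0.96), and *Cd8a* most like *Cd8b1* (0.89). *Lck* and *Lat* were each most like *Cd27*, a costimulatory receptor (0.91 for both). *Zap70* was most like *Sh2d2a*, which encodes an LCK-binding adaptor (0.92), and *Cd5* most like the related receptor *Cd6* (0.97).

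All 45 pairs of the 10 genes correlated positively, with r from 0.60 to 0.97 and a median of 0.80. Leaving out the marked clusters left 25 clusters, in which 38 pairs were positive and 7 negative, with a median of 0.44. All 7 negative pairs included *Zap70*. The lowest pair was then *Cd8b1* with *Zap70* (-0.60) and the highest *Cd3e* with *Cd247* (0.87). *Cd3g* with *Cd247*, at 0.68, then lay below pairs with genes other than CD3 chains, such as *Cd247* with *Lck* (0.82). The share of positive pairs among all genes was not computed, so these counts have no background beside them. The points of these correlations share libraries and depth, and the correlations are descriptions only.

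A list of 39 further genes of proximal antigen receptor signalling was compared in the same way. With age, 0 of 39 were higher past the fold and 3 were lower, beside the 4.6% and 4.49% of all genes given above. The 3 lowest were *Rasgrp1*, an exchange factor that activates RAS (-0.68), the receptor-associated adaptor *Trat1* (-0.58) and *Ptpn6*, the phosphatase SHP-1 (-0.53). The 3 highest were *Sit1* (0.46), *Sla* (0.28) and *Lax1* (0.25), all of them adaptors and all within the fold.

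Between organs, 5 of the 39 genes were higher in kidney past the fold and 3 were lower, beside 13% and 5.19% of all genes compared. The 3 highest were *Dok2*, an adaptor that restrains signalling (1.15), *Pag1*, which anchors the LCK inhibitor CSK (0.75), and *Sh2d2a* (0.72). The 3 lowest were the kinase *Txk* (-1.24), the diacylglycerol kinase *Dgka* (-1.14) and *Trat1* (-1.08). *Txk* was at 55.7 CPM in kidney against 133 CPM in 28W spleen, and *Dok2* at 96.9 against 43.2 CPM. The medians over the list were -0.06 by age and 0.14 by organ, beside -0.10 and 0.07 over all genes compared.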

How the data were processed

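Per the labels, 10x Genomics 5′ v2 chemistry was used. The submitters' processing notes name Cell Ranger 2.1.1, R 3.6.1 and GRCm38. The annotation release, cell filters and any treatment of doublets are not given in the sources used here, and doublets were not called, since the tables hold clusters and not cells. For each library the authors deposited cluster assignments and, per gene and cluster, a mean UMI count scaled so that all clusters of a library have the same sum, with log2 fold changes and adjusted p values, both of which were not used. Each deposited column held whole multiples of 1 step, from which UMIs were recovered, summed and expressed per 1000000 UMIs. Because the authors scaled each table on its own, levels across libraries rest on that rescaling. Ratios used a pseudocount of 1 CPM, a fold of 0.5 (log2) and genes that reached 10 CPM in 1 library or both. Likeness used genes with at least 50 CPM and a pseudocount of 10 CPM. Exact Poisson, Clopper-Pearson and conditional binomial intervals came from scipy 1.17.1. Limits of log2 ratios combined the Poisson limits of both libraries. Scripts (Python 3.11.15, numpy 2.4.6, pandas 2.3.3) were tested on simulated data. Coordinates are from GENCODE on GRCm38, which held 18960 of 18992 identifiers.

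Members and lists were chosen with earlier results of these data known. Named genes were the 10 members, the 3 highest and 3 lowest pathway genes of each comparison and the 2 genes most like each member. Leading genes of a cluster and single clusters were named after their values were seen. Alternatives varied scaling, pseudocount, fold, minimum level and the clusters kept. Leaving out each cluster in turn, and the correlations without marked clusters, were added after seeing the data. Clonotype data were not used here.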

Additional observations from a re-analysis of the deposited data

How the results depend on the processing

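No paired analysis was possible because the tables pool the samples of each group, and leaving out a replicate was not possible for the same reason. No result changed sign past the fold. The median log2 ratio over the 10 genes by age (-0.14) was -0.036 with scaling by the median gene ratio, -0.18 with the deposited means averaged over cells and -0.067 without the deepest cluster. By organ (0.13) it was 0.068, 0.051 and 0.056 under the same settings, -0.028 with the total that left out mitochondrial, ribosomal protein and T cell receptor genes and 0.34 without clusters marked by other cell types. By age, 1 gene (*Cd5*) was lower past the fold with the averaged means and without the deepest cluster. By organ, 1 gene (*Cd8a*) was higher with the averaged means, and 0 were with the reduced total or a fold of 1.

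With averaged means the *Cd8a* to *Cd8b1* ratio was 0.676 in kidney, 0.637 in the 12W spleen and 0.468 in the 28W spleen, so kidney then exceeded 12W spleen. Without the deepest cluster it was 0.445 in 28W spleen. Without marked clusters, the kidney clusters ran from 0.566 to 0.732. Leaving out each cluster in turn gave 0.618 to 0.719 at 12 weeks and 0.445 to 0.492 at 28 weeks in spleen, which kept 28W spleen lowest. The cause of these shifts was not tested. With 1 library per group, variation between mice was not measured, and the intervals cover counting error only.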
